A study of Arabidopsis thaliana with 12 samples.

Results

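White and marbled cotyledons of the same *Arabidopsis thaliana* mutant, *gun1-102*, were set against each other. The comparison used 6 of the 12 libraries of the series, 3 of seedlings with white cotyledons (*gun1W*) and 3 of seedlings with marbled cotyledons (*gun1M*), chosen by the names of the deposited columns. Both groups carry the same T-DNA insertion in *GUN1*, in the Col-0 background, so they differ in the cotyledon colour by which the seedlings were sorted, and not in the labelled genotype. The other libraries, 3 of *gun1-102* seedlings with green cotyledons (*gun1G*) and 3 of wild-type Col-0, are given only as levels beside this comparison. All seedlings were 4 days old and had no labelled treatment other than long days, with 16 h of light (100 µmol photons m−2 s−1) and 8 h of dark at 22 °C, on half-strength MS medium with 1% sucrose. The labels name the tissue as cotyledon, whereas the methods speak of seedlings. The RNA was depleted of rRNA before the stranded libraries were made, so transcripts of the nucleus, the plastid and the mitochondrion were measured together. Values are TPM, the abundance of a transcript as a part of a fixed total per library, added up for each gene model and scaled so that the median nuclear gene was equal in all libraries.

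GUN1 is a pentatricopeptide repeat protein of the plastid that takes part in signalling from the plastid to the nucleus and in the early development of chloroplasts. The plastid genome is read by a bacterial-type plastid-encoded polymerase (PEP), whose core subunits are the products of *rpoA*, *rpoB*, *rpoC1* and *rpoC2*, and by a phage-type nuclear-encoded polymerase (NEP). Photosynthesis genes depend mostly on PEP, and genes such as *rpoB*, *accD* and *clpP1* can be read from NEP promoters. A bleached cotyledon therefore poses a question for both genomes, namely which transcripts separate complete from partial loss of green tissue.

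The plastid gene with the largest well-measured difference was *psbA*, which encodes the D1 protein of the photosystem II reaction centre. Its promoter is shown because its elements are of the bacterial type that PEP reads. In the TAIR10.1 reference the 2 elements lie on the minus strand of the plastid genome, at positions 1530 to 1559, and begin 115 bases before the start codon. Capitals mark TTGACA and TATACT, with a spacer of 18 bases.
psbA: TTGACAtggctatataagtcatgtTATACT
Within 200 bases before the start codon, TTGACA occurred on the coding strand in 7 of 86 plastid protein-coding genes (8.14%) and on either strand in 12 (13.95%). Both elements 15 to 20 bases apart occurred in 1 of 86 (1.163%), which was *psbA* itself. The letters searched for were those of *psbA*, so its own match was given. Other forms of such elements were not searched for. A match is a match of letters and does not show that a polymerase bound there.

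A second set of sequences bears on what *AT2G07732*, one of the models called lower outside the plastid, measured. *rbcL*, the plastid gene for the large subunit of RuBisCO, has a near-identical partial copy in the mitochondrial genome and another one in this nuclear gene model. The same window of 120 bases, positions 582 to 701 of the *rbcL* coding sequence (a single exon), is shown from all 3 genomes. It lies at Pltd:55539-55658 (plus strand), MT:165024-165143 (plus strand) and chr2:3468578-3468697 (minus strand) of TAIR10.1, and capitals mark the bases that differ from *rbcL*.
rbcL: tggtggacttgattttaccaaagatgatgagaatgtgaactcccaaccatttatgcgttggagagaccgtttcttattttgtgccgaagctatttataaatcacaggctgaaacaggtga
mitochondrial copy: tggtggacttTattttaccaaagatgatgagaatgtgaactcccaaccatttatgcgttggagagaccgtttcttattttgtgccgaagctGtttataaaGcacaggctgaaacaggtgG
AT2G07732: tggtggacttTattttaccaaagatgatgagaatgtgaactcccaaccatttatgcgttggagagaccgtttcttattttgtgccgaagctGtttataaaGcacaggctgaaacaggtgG
Counted from the start of the window, both copies carry G11T, A92G, T101G and A120G, and they are identical to each other. Over the whole of *AT2G07732* (740 bases), 573 bases aligned to *rbcL* with 96.9% identity, and all 740 aligned to the mitochondrial genome with 99.7% identity. Reads of such copies can be split between gene models, so the values of these models are uncertain.

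The 6 libraries were not equally alike within their groups. Across nuclear genes, the correlation of log2 values was 0.909 to 0.965 among *gun1W* libraries, 0.896 to 0.929 among *gun1M* libraries and 0.850 to 0.958 between the groups. The highest value between the groups was that of *gun1W* replicate 2 and *gun1M* replicate 3, which exceeded every value within *gun1M*. One non-coding gene model in the region of the nuclear rRNA genes, *AT3G06365* (chr3:14200215-14204208), took 19.5, 15.1 and 4.02% of the TPM in *gun1W*, against 1.16, 0.745 and 10.5% in *gun1M*. It was high in 2 *gun1W* libraries and in *gun1M* replicate 3, so the groups overlapped. Its part in the results was not tested beyond a fit that held this share as a covariate. *GUN1* itself had 39.3, 33.3 and 25.7 TPM in *gun1W* and 25.7, 24.5 and 36.1 TPM in *gun1M* (log2 difference 0.18, SE 0.20), against a mean of 25.7 TPM in *gun1G* and 45.5 TPM in Col-0. The summed TPM of a gene with an insertion does not tell whether a full transcript was made.

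The plastid took a far smaller part of the RNA in white than in marbled cotyledons. Its share of the TPM was 9.29, 11.7 and 12.5% in *gun1W*, against 34.6, 34.4 and 27.7% in *gun1M*, which made means of 11.2 ± 1.67% and 32.3 ± 3.94% (SD, n = 3 each). The groups did not overlap, and the difference of −21.1 percentage points had p = 0.10 in a two-sided exact permutation test, the smallest p that 3 libraries against 3 can give. The share was 38.4 to 41.5% in *gun1G* and 34.5 to 37.8% in Col-0. In a bulk sample, fewer plastids and less RNA per plastid cannot be told apart. Without *gun1M* replicate 3, whose share was the lowest of its group, the difference was −23.4 percentage points.

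The share of the mitochondrial genome was 13.5, 13.2 and 16.0% in *gun1W*, against 26.9, 25.5 and 18.1% in *gun1M* (difference −9.25 percentage points, p = 0.10 in the exact permutation test). A single model set this direction. *ATMG00280*, annotated by the study's transcriptome in the mitochondrial genome, took 3.57, 3.80 and 5.64% of the TPM in *gun1W*, against 22.7, 21.1 and 13.8% in *gun1M*. Its log2 difference was −2.93, beside −2.82 for the plastid gene *rbcL*, and which genome its reads came from was not tested. Without *ATMG00280*, the mitochondrial share was higher in white cotyledons, with 9.94, 9.36 and 10.4% in *gun1W*, against 4.23, 4.35 and 4.24% in *gun1M* (difference 5.62 percentage points, p = 0.10 in the exact permutation test), a calculation added after the data were seen. The groups were separate in both measures, in opposite directions. As shares of 1 total, these values also move when the plastid share moves.

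**Figure D1:**
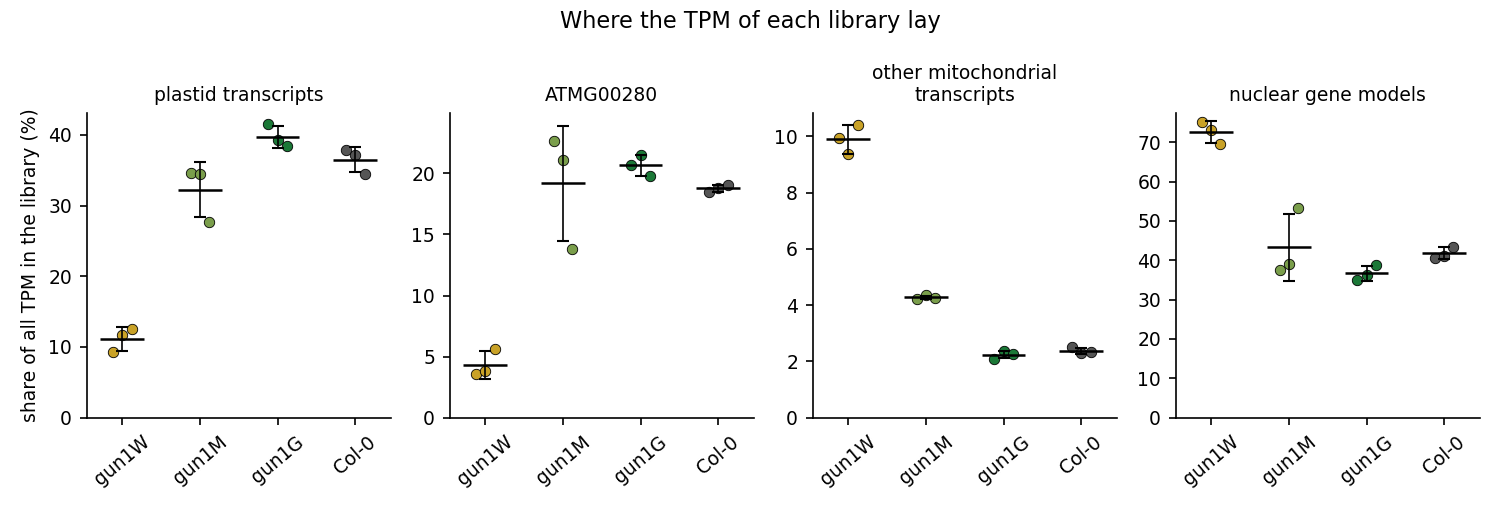
Share of all TPM in the library (percent, axes from 0) of plastid transcripts, *ATMG00280*, other mitochondrial transcripts and nuclear gene models in *gun1W*, *gun1M*, *gun1G* and Col-0. Points are libraries, lines means and error bars SD (n = 3 per group). The *gun1W* libraries lie at 9.29 to 12.5% for the plastid, below the 27.7 to 34.6% of *gun1M*, and at 9.36 to 10.4% for the other mitochondrial transcripts, above the 4.23 to 4.35% of *gun1M*.

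Of the 97 plastid gene models that could be tested (detected in 3 libraries or more), 71 fell in *gun1W* relative to *gun1M* (73.2% of the tested models, adjusted p under 0.05, limma) and none rose (0.0%). No model was higher at an unadjusted p under 0.05 either, 95 of 97 had a negative difference, and in 67 all *gun1W* libraries lay below all *gun1M* libraries. The median log2 difference of the 97 was −1.66, against 0.01 for the 18373 gene models outside the plastid. With TPM as deposited, in which the median of the models outside the plastid was 0.64, the plastid median was −0.88, 48 models fell and 15 were above 0, so the plastid differences given here are relative to the median nuclear gene. Leaving out any 1 of the 6 libraries gave 62 to 79 lower models and none higher. The 41 tested models for photosynthetic complexes, the NDH complex and RuBisCO had a median of −2.38, and 38 of them fell. The 26 for the polymerase core and ribosomal proteins had a median of −1.30, and 15 fell. These medians describe the 2 groups, and no test compared them.

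**Figure D2:**
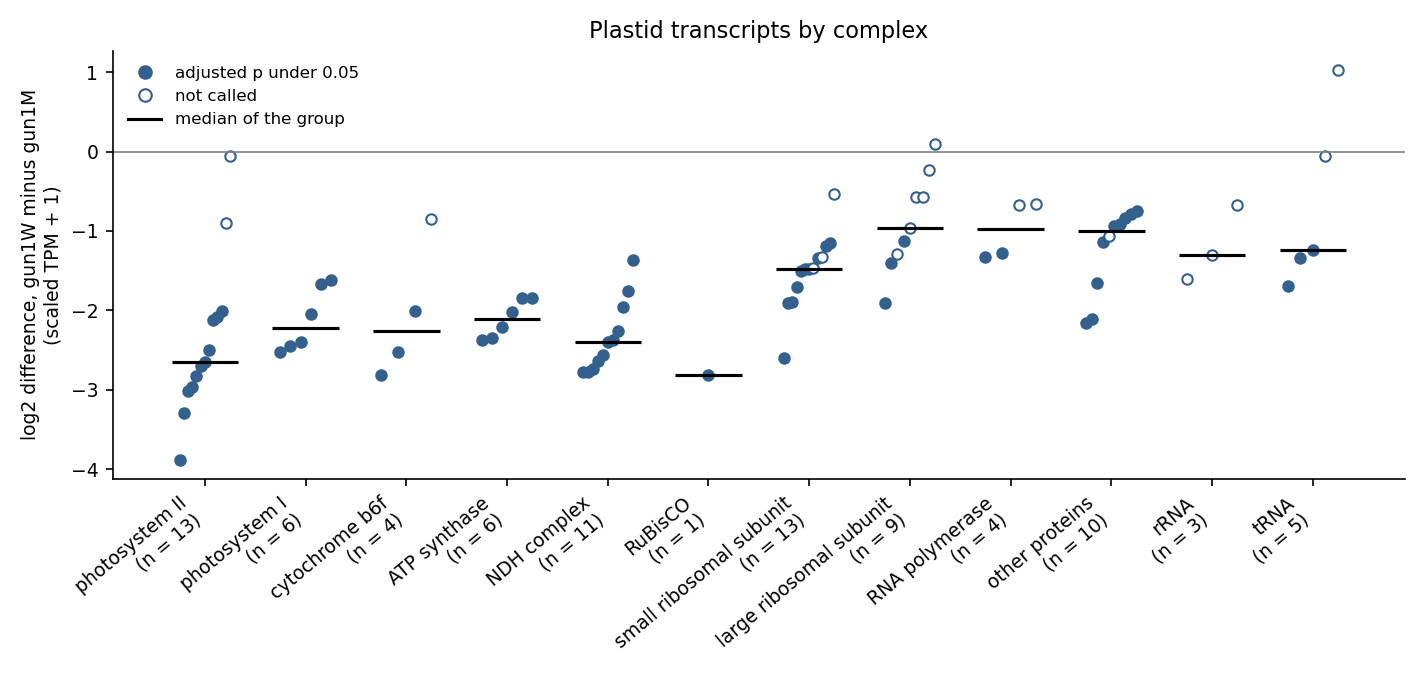
Log2 difference (*gun1W* minus *gun1M*, scaled TPM + 1) of the plastid gene models, joined ones left out, grouped by the complex of the product. Points are gene models, filled where the adjusted p was under 0.05, and lines mark medians. The medians lie between −2.82 and −2.11 for photosynthetic complexes, NDH and RuBisCO, and higher for the polymerase core (−0.98) and the large ribosomal subunit (−0.97).

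Photosystem II, which splits water, had 11 of 13 plastid-encoded subunits lower (median −2.65). *psbA* had 6707, 7569 and 10078 TPM in *gun1W*, against 94410, 97951 and 51645 TPM in *gun1M*. Every white library was far below the lowest marbled one, and the fitted level was 9.77-fold lower (log2 difference −3.29, SE 0.26, adjusted p = 1.62e-07), with means of 140451 TPM in *gun1G* and 131302 TPM in Col-0. *psbC*, for the inner antenna protein CP43, fell less, with 602, 428 and 295 TPM in *gun1W* against 2037, 1286 and 2389 TPM in *gun1M* (log2 difference −2.12, SE 0.28). The other inner antenna gene, *psbB* (CP47), fell by 2.70 on the log2 scale, and *psbE*, for a cytochrome b559 subunit, by 2.50. The fitted value of the small gene *psbL* was larger than that of *psbA* (−3.88) but uncertain (SE 0.86), because one of its *gun1W* libraries was at 0 and the other two at 5.85 and 21.4 TPM, against 68.1, 103 and 67.3 TPM in *gun1M*. The subunits that did not pass were *psbI* (log2 difference −0.90, adjusted p = 0.254) and *psbN*, which is needed for assembly. *psbN* overlapped fully, with 115, 68.1 and 77.4 TPM in *gun1W* and 153, 44.4 and 102 TPM in *gun1M* (log2 difference −0.06, adjusted p = 0.913).

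RuBisCO fixes CO2, and its plastid gene *rbcL* had 2888, 3027 and 3535 TPM in *gun1W*, against 26181, 27441 and 15148 TPM in *gun1M*. The groups were far apart, with a 7.06-fold lower level in white cotyledons (log2 difference −2.82, SE 0.21, adjusted p = 1.61e-07). In *gun1G* the mean was 28611 TPM, close to the 2 higher marbled libraries. The reaction centre genes of photosystem I moved alike. *psaA* had 1366, 1473 and 1434 TPM in *gun1W*, against 9539, 9424 and 6176 TPM in *gun1M* (log2 difference −2.53, SE 0.17, adjusted p = 1.06e-07). Its neighbour *psaB* fell by 2.45, and all 6 tested photosystem I models, which include the assembly factors *ycf3* (−1.62) and *ycf4* (−1.66), were lower.

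The cytochrome b6f complex, which passes electrons between the photosystems, had 3 of 4 subunits lower, from *petB* (−2.82) to *petA* (−2.01). The small subunit *petG* did not pass (log2 difference −0.84, adjusted p = 0.328), with 14.9, 38.1 and 94.5 TPM in *gun1W* and 111, 131 and 22.3 TPM in *gun1M*. All 6 plastid subunits of the ATP synthase were lower, in a narrow range from *atpE* (−2.37) to *atpA* and *atpI* (−1.85 each). All 11 subunits of the NDH complex, which returns electrons to the plastoquinone pool, were lower too. Their range was wider, from *ndhI* and *ndhE* (−2.78 each) to *ndhH* (−1.37). *ndhE* had 377, 437 and 572 TPM in *gun1W*, against 4403, 4244 and 1649 TPM in *gun1M*. *gun1M* replicate 3 was the lowest marbled library here, as it was for *psbA*, *rbcL* and *psaA*.

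The genes of the plastid's own expression machinery were lower by less, and not all passed the test. Of the 4 polymerase core genes, 2 fell. Relative to *gun1G*, the median log2 difference of these 4 was −0.0006 in *gun1W* and 0.73 in *gun1M*. Relative to Col-0 it was −0.13 in *gun1W* and 0.70 in *gun1M*. White cotyledons were thus near green ones in this median, and marbled ones were above them. For the 41 models of photosynthesis, NDH and RuBisCO, the medians relative to *gun1G* were −2.85 in *gun1W* and −0.37 in *gun1M*. No test compared these medians. *rpoC2* had 45.8, 132 and 90.9 TPM in *gun1W*, against 266, 164 and 186 TPM in *gun1M* (log2 difference −1.28, adjusted p = 0.0138). *rpoA*, which lies among ribosomal protein genes, also passed (−1.33, adjusted p = 0.00945), although its groups overlapped. *rpoB* had 156, 217 and 128 TPM in *gun1W* and 284, 194 and 310.5 TPM in *gun1M* (log2 difference −0.66, adjusted p = 0.0685), and *rpoC1* differed by −0.68 (adjusted p = 0.0607). *rpoB* passed the test without *gun1W* replicate 2 (adjusted p = 0.0379), without *gun1M* replicate 2 (adjusted p = 0.0285) and when the *AT3G06365* share was a covariate (adjusted p = 0.0211). With TPM as deposited the difference of *rpoB* was 0.12.

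Of the ribosomal protein genes, 10 of 13 models of the small subunit fell (median −1.47) and 3 of 9 of the large subunit (median −0.97), and no test compared the subunits. *rps14*, which is transcribed with *psaA* and *psaB*, had the largest difference of its group, with 364, 571 and 536 TPM in *gun1W*, against 3279, 4061 and 1886 TPM in *gun1M* (log2 difference −2.60, SE 0.28). *rps2* was at the other end, with 238, 238 and 111 TPM in *gun1W* and 261, 187 and 395 TPM in *gun1M* (log2 difference −0.53, adjusted p = 0.255). In the large subunit *rpl14* fell most (−1.91). *rpl36* was at 0 in 4 of the 6 libraries and carries no information (log2 difference 0.09, adjusted p = 0.954).

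Of the 10 other protein models, 9 fell. *clpP1*, the plastid-encoded subunit of the Clp protease, had 3379, 3222 and 3093 TPM in *gun1W*, against 7198, 5711 and 5696 TPM in *gun1M*. The groups did not overlap, and the marbled level was near that of green seedlings, with a mean of 5687 TPM in *gun1G* and 5680 TPM in Col-0 (log2 difference −0.93, SE 0.16, adjusted p = 0.000128). *accD*, a subunit of the acetyl-CoA carboxylase that starts fatty acid synthesis, had 104, 99.2 and 74.3 TPM in *gun1W*, against 194, 148 and 156 TPM in *gun1M* (log2 difference −0.84, adjusted p = 0.0157). Both genes thus fell, by less than *psbA* or *rbcL*. *cemA* (−2.16) and *ccsA* (−2.11), a cytochrome c maturation gene, and the maturase gene *matK* (−1.66) differed by more, and *ycf15.1* by the least of those that passed (−0.75). The model that did not pass was *ycf1.2* (−1.06, adjusted p = 0.0754).

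Of 5 tRNA precursors, 3 fell, among them *trnA.1* (−1.70) and *trnI.2* (−1.34). *trnK* went against the others but was at 0 in 3 of 6 libraries (log2 difference 1.02, adjusted p = 0.67). None of the 3 rRNA models passed, from *rrn16S.1* (−1.61, adjusted p = 0.113) to *rrn23S.2* (−0.68, with 0 TPM in 5 of the 6 libraries). The libraries had been depleted of rRNA, so these levels do not measure the rRNA of the cell. Of the 12 joined models, which span neighbouring genes, 6 fell, from *psbD-psbC* (−2.89) to a model of *trnI.2* through *rrn5S.1* near 0 TPM in all 6 libraries (−0.10).

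**Figure D3:**
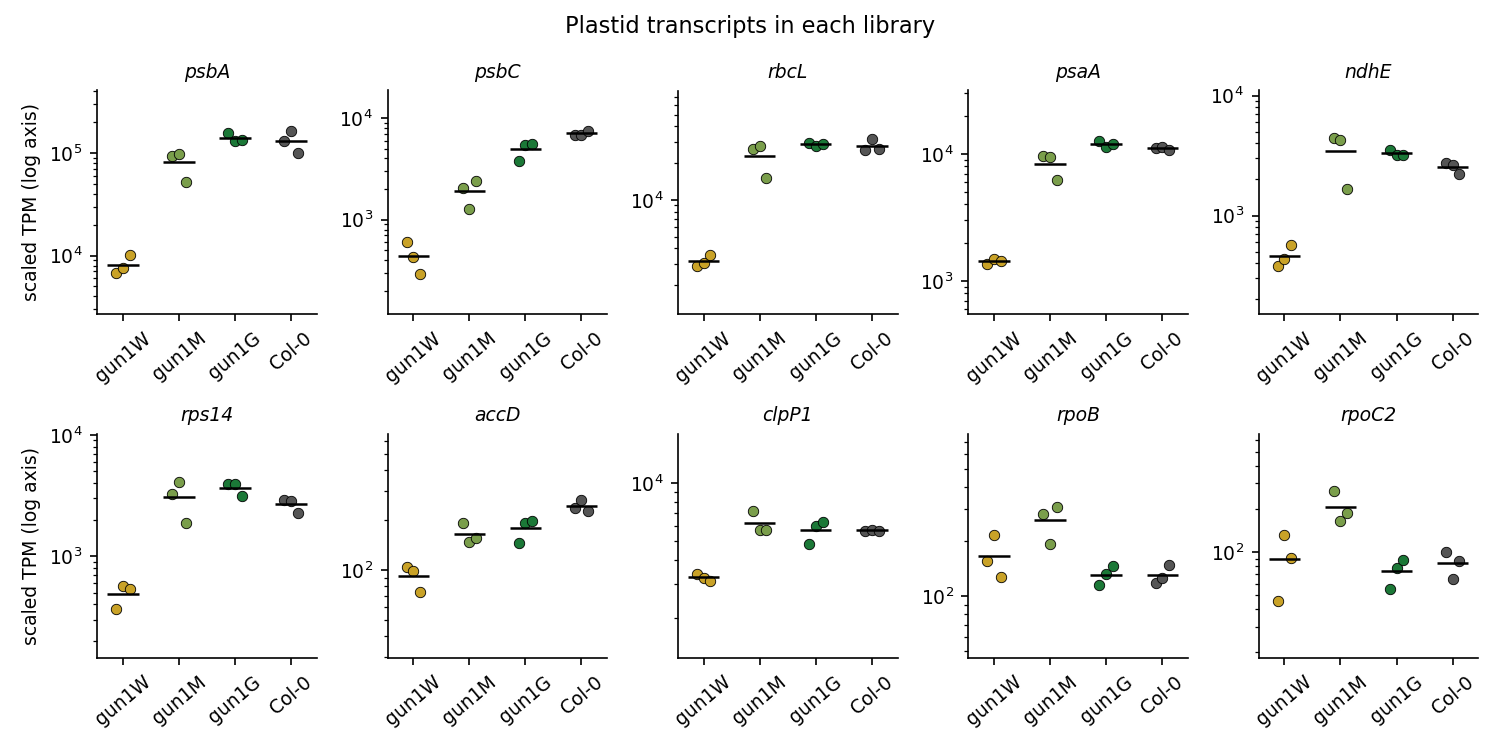
Scaled TPM (log axis) of *psbA*, *psbC*, *rbcL*, *psaA*, *ndhE*, *rps14*, *accD*, *clpP1*, *rpoB* and *rpoC2* in each library of *gun1W*, *gun1M*, *gun1G* and Col-0. Points are libraries and lines means. For *psbA* the *gun1W* libraries (6707 to 10078 TPM) lie far below those of *gun1M* (51645 to 97951 TPM), whereas for *rpoB* the 2 groups overlap.

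Some plastid genes also differed between marbled and green seedlings of the same genotype. In *gun1M* relative to *gun1G*, a comparison that shares the *gun1M* libraries with the one above, 17 of the 97 plastid models fell and 2 rose (adjusted p under 0.05), with a median of −0.31. The 2 that rose were *rpoC2* (1.47, adjusted p = 0.0303) and *rpoB* (0.97, adjusted p = 0.045). *rpoB* averaged 131.5 TPM in *gun1G* and 131 TPM in Col-0, so it was highest in marbled cotyledons, and white cotyledons lay between. *psbA* (−0.84, adjusted p = 0.0434) and *psaA* (−0.54, adjusted p = 0.0459) fell in *gun1M* relative to *gun1G*, and *rbcL* did not pass (−0.37, adjusted p = 0.256).

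Outside the plastid few genes separated the colours. Of 18373 tested gene models, 8 rose (0.0435%) and 18 fell (0.098%) in *gun1W* relative to *gun1M*, at an adjusted p under 0.05 and at least 2-fold in limma, and 34 passed the adjusted p alone (0.185%). At an unadjusted p under 0.05, 1026 models were higher (5.58%) and 949 lower (5.17%). In 1316 (7.16%) and 1306 (7.11%) models all *gun1W* libraries lay above or below all *gun1M* libraries. The spread was shared over all 12 libraries. Fitted on the 6 libraries alone, no gene model passed, the smallest adjusted p being 0.0566, with 777 higher and 721 lower models at an unadjusted p under 0.05. The counts also depended on single libraries, with 18 higher and 25 lower models without *gun1M* replicate 3, 2 and 5 without *gun1M* replicate 2, 4 and 7 without *gun1W* replicate 1, 3 and 10 without *gun1W* replicate 2, and 6 and 10 without *gun1W* replicate 3. In all 26 called models the *gun1W* and *gun1M* libraries did not overlap, so leaving out 1 library could not change the sign. Without any 1 library, 7 of the 26 kept an adjusted p under 0.05 each time, namely *ATMG00280*, *AT2G07732*, *AT3G32990*, *AT1G66100*, *ESM1*, *AT5G20000* and *NAC103*.

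**Figure D4:**
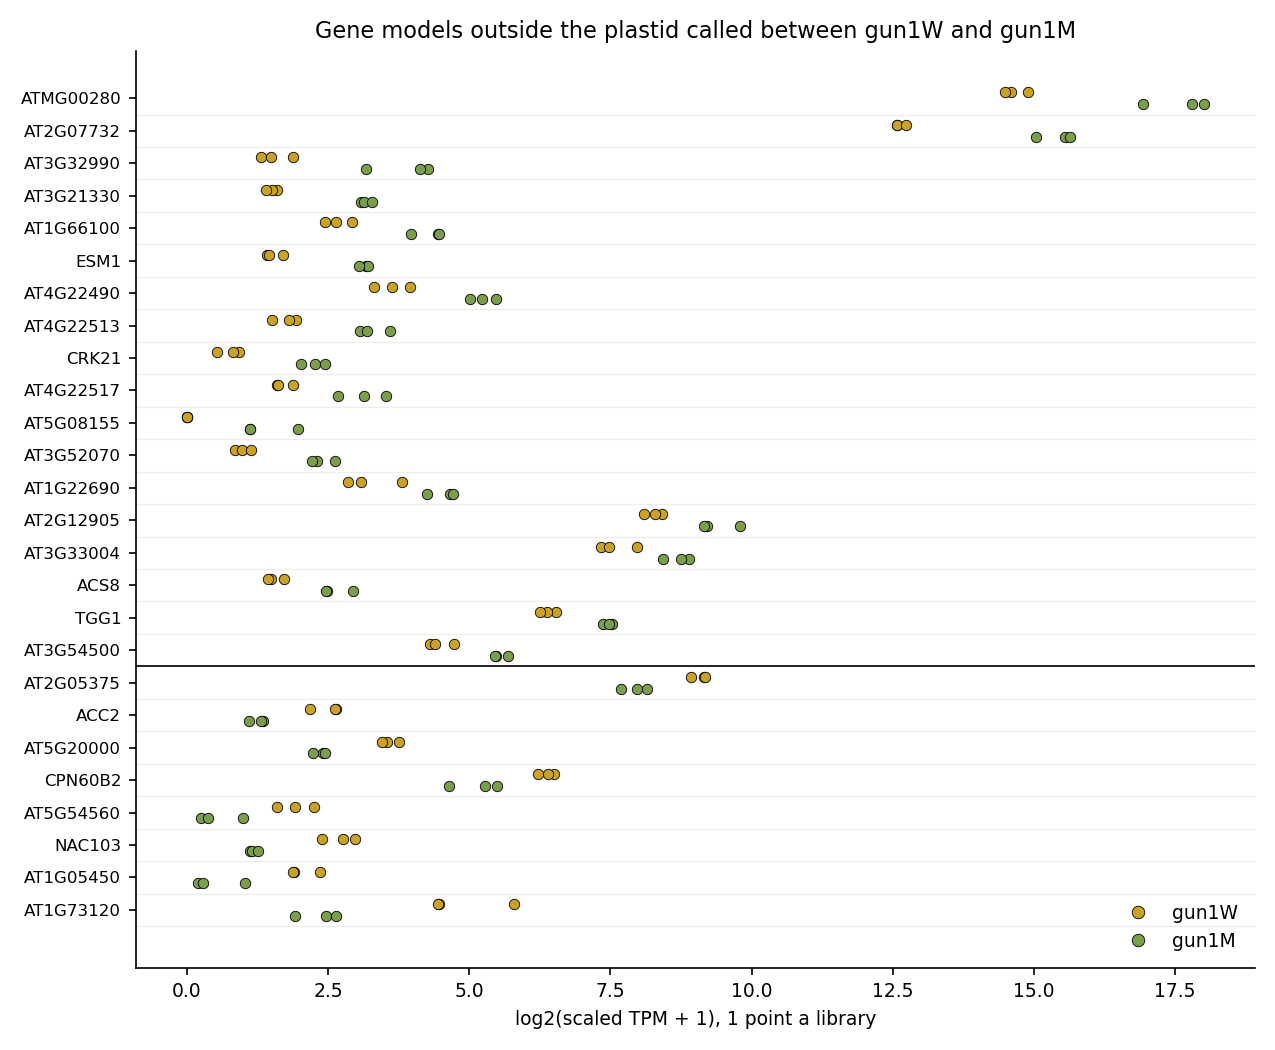
Level in each *gun1W* and *gun1M* library, as log2(scaled TPM + 1), of the 26 gene models outside the plastid that passed the adjusted p and the 2-fold threshold. Models above the black line fell in *gun1W* (18) and those under it rose (8), ordered by the size of the difference, which ran from −2.93 to −1.06 and from 1.15 to 2.57. In each of them the *gun1W* libraries lie apart from the *gun1M* libraries.

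Among the called models, *ATMG00280* and *AT2G07732* had the largest decreases. *ATMG00280* had 24660, 22931 and 30334 TPM in *gun1W*, against 263859, 229003 and 125633 TPM in *gun1M* (log2 difference −2.93, SE 0.28, adjusted p = 0.00173). *ATMG00280* is not annotated in the mitochondrial reference used here, so its span could not be checked. Its sequence was therefore not compared with the plastid genome, and a resemblance to a plastid gene was not tested. *AT2G07732*, which holds the *rbcL* window shown above, had 6121, 6141 and 6842 TPM in *gun1W*, against 47753, 50717 and 33686 TPM in *gun1M* (−2.77, SE 0.21, adjusted p = 0.000291). Their differences were close to that of *rbcL* (−2.82). Of the 17 nuclear models that fell, 4 had a match to the plastid genome, as did 20 of the 17675 tested nuclear models. *AT3G32990* (−2.30) shares 288 bases at 94.8% identity with the region of *atpH* (−2.02), *AT2G12905* (−1.12) shares 219 bases at 95.4% with *ycf3* (−1.62), and *AT3G33004* (−1.09) shares 2569 bases at 93.5% with *rpoC2* (−1.28). Whether the values of these nuclear models come from the nuclear copies was not tested. With all nuclear models that match an organelle genome left out, 6 rose and 12 fell among 18215.

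Of the remaining nuclear genes that fell, 2 act on glucosinolates, the sulphur compounds that cruciferous plants break down on wounding. *ESM1*, which steers that breakdown towards isothiocyanates, had 1.68, 1.74 and 2.27 TPM in *gun1W*, against 7.98, 8.21 and 7.29 TPM in *gun1M* (log2 difference −1.61, SE 0.15, adjusted p = 0.00173). The groups were clearly apart, and green seedlings were higher by far, with means of 57.2 TPM in *gun1G* and 66.9 TPM in Col-0. *TGG1*, the myrosinase enzyme that starts the breakdown, had 91.5, 82.1 and 75.6 TPM in *gun1W*, against 184, 165 and 178 TPM in *gun1M* (−1.07, SE 0.14, adjusted p = 0.011), with 279.6 TPM in *gun1G*. *TGG1* lost its call without *gun1W* replicate 2 or 3 or *gun1M* replicate 2. *TGG1* is known from guard cells, whose summed markers overlapped between the groups, at 6.25 to 13.6 TPM in *gun1W* and 6.80 to 17.3 TPM in *gun1M*. Of the 5 markers in this sum, 3 had a positive difference and 2 a negative one. *KAT1*, one of the lower markers, differed by −1.03 without overlap of the groups (adjusted p = 0.135 in limma). The part of guard cells in the difference of *TGG1* was not tested.

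The other nuclear models that fell had varied products. *AT1G66100*, a thionin, had 4.46, 5.26 and 6.63 TPM in *gun1W*, against 20.8, 21.0 and 14.7 TPM in *gun1M* (log2 difference −1.62, SE 0.18, adjusted p = 0.00519). The neighbours on chromosome 4, *AT4G22490* (−1.60), *AT4G22513* (−1.53) and *AT4G22517* (−1.42), encode proteins of the family of protease inhibitors and lipid transfer proteins. They lie between positions 11849653 and 11857362, and as related genes they may share reads. *AT1G22690*, of the gibberellin-regulated family, fell by 1.30, and the receptor-like kinase *CRK21*, at under 5 TPM in both groups, by 1.49. The bHLH gene *AT3G21330* had 2.02, 1.85 and 1.65 TPM in *gun1W*, against 7.45, 7.80 and 8.74 TPM in *gun1M*, and 18.8 TPM on average in *gun1G* (−1.66, SE 0.21, adjusted p = 0.00846). *ACS8*, an enzyme of ethylene synthesis, fell as well, with 2.30, 1.80 and 1.72 TPM in *gun1W*, against 6.70, 4.57 and 4.51 TPM in *gun1M* (−1.08). The last 3 were the phosphatase gene *AT3G52070* (−1.40), *AT3G54500* (−1.06) and the non-coding *AT5G08155*, which was listed at 0 in every library of *gun1W*, *gun1G* and Col-0, against 1.18, 1.18 and 2.93 TPM in *gun1M*. *AT5G08155* thus passed the filter only through the group in which it was high, and its call carries little weight.

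In 12 of the 18 models that fell, the *gun1M* mean lay between those of *gun1W* and *gun1G*, and in 6 it was above *gun1G*. Of those 6, *AT3G54500* rose in *gun1M* relative to *gun1G* (0.66, adjusted p = 0.0291 in limma). *AT5G08155* passed the filter only through the *gun1M* libraries, so its p-values are no test of these groups. *AT3G54500* had 18.8, 20.1 and 25.6 TPM in *gun1W*, against 43.4, 42.8 and 50.5 TPM in *gun1M* and a mean of 28.6 TPM in *gun1G*.

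The 8 models that rose included 2 plastid proteins. *ACC2* is a second, homomeric acetyl-CoA carboxylase that is sent to plastids, beside the enzyme with the *accD* subunit. It had 5.23, 5.16 and 3.52 TPM in *gun1W*, against 1.56, 1.15 and 1.50 TPM in *gun1M* and 0.722 TPM on average in *gun1G* (log2 difference 1.22, SE 0.18, adjusted p = 0.018). *CPN60B2*, a subunit of the plastid chaperonin, had 89.9, 83.2 and 73.8 TPM in *gun1W*, against 23.9, 37.9 and 44.2 TPM in *gun1M* (1.23, SE 0.21, adjusted p = 0.0448). Its mean was 14.9 TPM in *gun1G* and 7.63 TPM in Col-0, so its level was highest in white, next in marbled and lowest in green seedlings. Both lost their call without *gun1W* replicate 1 or 2 or *gun1M* replicate 1 or 2, and *CPN60B2* also without *gun1W* replicate 3.

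*NAC103*, a transcription factor of the response to unfolded proteins in the endoplasmic reticulum, had 5.81, 4.29 and 6.87 TPM in *gun1W*, against 1.17, 1.22 and 1.39 TPM in *gun1M* (log2 difference 1.54, SE 0.17, adjusted p = 0.00519). All 3 white libraries were above 4 TPM, and every other library of the series was under 2 TPM. *AT5G20000*, an AAA-type ATPase, had 12.6, 10.7 and 9.996 TPM in *gun1W*, against 4.35, 3.71 and 4.45 TPM in *gun1M* (1.22, SE 0.14, adjusted p = 0.00599). The F-box gene *AT1G73120* showed the largest increase, with 54.7, 21.1 and 20.9 TPM in *gun1W*, against 4.55, 2.76 and 5.23 TPM in *gun1M* (2.57, SE 0.32, adjusted p = 0.00812). It did not follow colour, since its mean was 21.6 TPM in *gun1G* and 130.3 TPM in Col-0. *AT1G05450* (1.54), of the lipid transfer protein family, and *AT5G54560* (1.37) were under 5 TPM in both groups. *AT5G54560* was at 0 in every library of *gun1G* and Col-0. Neither model would have passed the filter without the *gun1W* libraries, in which both were high, so their calls carry little weight. The non-coding *AT2G05375* (1.15) is identical over its 262 bases to mitochondrial sequence, and the source of its reads was not tested.

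Below 2-fold, 6 further models fell and 2 rose at an adjusted p under 0.05. *PSBP1*, a nuclear-encoded subunit of the oxygen-evolving complex of photosystem II, had 254, 270.0 and 243 TPM in *gun1W*, against 473, 449 and 465 TPM in *gun1M* (log2 difference −0.85, SE 0.12, adjusted p = 0.0157). This was 1.81-fold, beside 9.77-fold for the plastid-encoded *psbA*, and *PSBP1* kept its call in 1 of 6 fits without a library, the one without *gun1M* replicate 3. *SHM1*, the photorespiratory serine hydroxymethyltransferase of mitochondria, had 129.8, 149 and 145 TPM in *gun1W*, against 303, 259 and 243 TPM in *gun1M* (−0.92). *AT1G18060* (−0.94), *SNC4* (−0.93), *AT3G16660* (−0.78) and *AT5G14970* (−0.75) were lower as well. The 2 that rose were *PAE1*, a subunit of the 20S proteasome (0.93), and *AT2G07723* (0.74).

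Nuclear photosynthesis genes were lower on balance, by much less than the plastid ones. All but 1 of 21 light-harvesting (LHC) genes had a negative difference, with a median of −0.62 against 0.01 for all gene models. At an unadjusted p under 0.05, 16 of 21 were lower (76.2%, against 5.17% of all gene models), and none passed the adjusted p. With TPM as deposited, the LHC median was 0.16, that of nuclear photosystem subunits 0.17 and that of carbon fixation 0.40, so the direction of these lists holds relative to the median gene. *LHCB3* had 915, 886 and 1089 TPM in *gun1W*, against 2250, 1992 and 1365 TPM in *gun1M* (log2 difference −0.93, adjusted p = 0.103). Among nuclear photosystem subunits, the median was −0.62 and 16 of 23 were lower at an unadjusted p under 0.05 (69.6%, against 5.17% of all gene models). *PSAO* came closest to the threshold after *PSBP1*, with 281, 291 and 357 TPM in *gun1W*, against 675, 676 and 501 TPM in *gun1M* (−0.99, adjusted p = 0.0502). Its groups were apart. In 14 subunits, *PSAO* included, all *gun1W* libraries lay below all *gun1M* libraries (60.9%, against 7.11% of all gene models). *PSBQ2* (−0.95) and *PSAE1* (−0.77) had an adjusted p of 0.0759 each. For carbon fixation the median was −0.38, and 9 of 18 genes were lower and 1 higher at an unadjusted p under 0.05 (50% and 5.56%, against 5.17% and 5.58% of all gene models). *RBCS1A*, a small subunit of RuBisCO, had 13321, 13035 and 15828 TPM in *gun1W*, against 30746, 24055 and 20808 TPM in *gun1M* (−0.83, adjusted p = 0.161), which is less than the difference of *rbcL*.

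**Figure D5:**
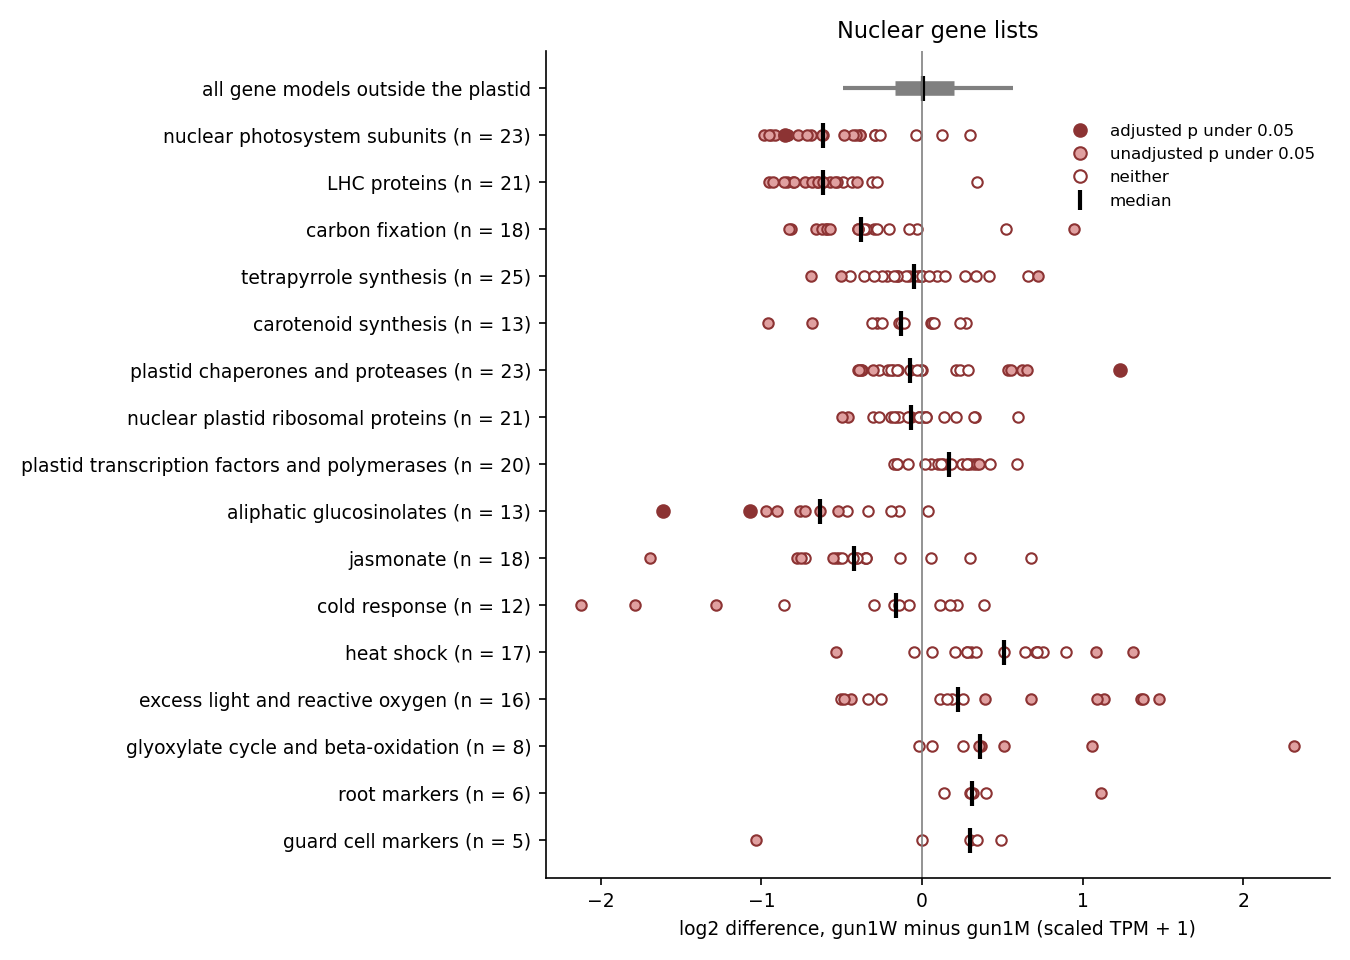
Log2 difference (*gun1W* minus *gun1M*, scaled TPM + 1) of the tested members of 16 nuclear gene lists. Points are genes, dark where the adjusted p and light where only the unadjusted p was under 0.05, black ticks are medians, and the grey bar gives the middle 50% (thick) and 90% (thin) of all gene models outside the plastid. The lists for glucosinolates (−0.63), LHC proteins and photosystem subunits (−0.62 each) have the lowest medians, and the last 2 are above 0 with TPM as deposited.

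Of the machinery that builds plastids, a single gene passed the adjusted p, and members differed in both directions. The median log2 difference was −0.05 for 25 tetrapyrrole genes, −0.13 for 13 carotenoid genes, −0.07 for 21 nuclear genes of plastid ribosomal proteins, 0.17 for 20 plastid transcription factors and polymerases, −0.07 for 23 plastid chaperones and proteases and −0.09 for 7 greening regulators. At an unadjusted p under 0.05, 7 of these 109 genes were higher and 12 lower, beside 5.58% and 5.17% of all gene models. Of the 23 chaperones and proteases, 5 were higher and 5 lower (21.7% each, against 5.58% and 5.17% of all gene models), among them *CPN60B2*, which passed the adjusted p, *CPN20* (0.65, adjusted p = 0.203), and the proteases *DEG1* (−0.38) and *FTSH1* (−0.40). *CAO*, the enzyme that makes chlorophyll b, differed by −0.69 and *CRD1*, of the cyclase step of chlorophyll synthesis, by −0.51. *GSA1*, of the first steps of tetrapyrrole synthesis, differed by 0.72. *CCD4*, a carotenoid-cleaving enzyme, differed by −0.96 and *BCH2* by −0.69, and none of these passed the adjusted p.

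Of 13 aliphatic glucosinolate genes, 2 fell (*ESM1* and *TGG1*) and 8 were lower at an unadjusted p under 0.05 (61.5%, against 5.17% of all gene models). The median of the 13 genes was −0.63 (−0.09 with TPM as deposited). Their summed level was 116 to 122 TPM in *gun1W*, against 230 to 237 TPM in *gun1M*. The sum was mostly *TGG1*. *MAM1*, of the chain elongation of methionine, had 2.62, 3.73 and 4.21 TPM in *gun1W*, against 4.89, 7.51 and 7.06 TPM in *gun1M* (log2 difference −0.73, adjusted p = 0.169), and *MYB29*, a regulator of the pathway, differed by −0.90 at levels under 2 TPM.

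Genes for the use of stored fat leaned the other way. Of 8 genes of the glyoxylate cycle and β-oxidation, 5 were higher at an unadjusted p under 0.05 (62.5%, against 5.58% of all gene models). In 5, all *gun1W* libraries lay above all *gun1M* libraries (7.16% of all gene models), and none of the 8 passed the adjusted p (median 0.36). *ICL*, isocitrate lyase, had 113, 82.9 and 61.8 TPM in *gun1W*, against 13.0, 22.1 and 13.9 TPM in *gun1M* (log2 difference 2.32, SE 0.49, adjusted p = 0.107). The white libraries were separate from the marbled ones, and *gun1G* averaged 4.29 TPM and Col-0 7.53 TPM. *MLS*, malate synthase, had 11.5, 7.53 and 5.95 TPM in *gun1W*, against 3.85, 3.72 and 2.62 TPM in *gun1M* (1.06, adjusted p = 0.171). Both enzymes are those that set the glyoxylate cycle apart from the citric acid cycle. The β-oxidation genes *KAT2* (0.51) and *MFP2* (0.35) differed by less. In 6 genes for seed storage and oil bodies, none reached an unadjusted p under 0.05 (median 0.40).

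None of 17 heat shock genes passed the adjusted p between white and marbled cotyledons. Both groups were far above green seedlings, with a median log2 difference of 3.02 in *gun1W* and 2.59 in *gun1M* relative to *gun1G*. Between *gun1W* and *gun1M* the median of the 17 was 0.51, with 2 higher and 1 lower at an unadjusted p under 0.05 (11.8% and 5.88%, against 5.58% and 5.17% of all gene models). This median was −0.06 without *gun1M* replicate 1 and 1.22 without *gun1M* replicate 3. Without *gun1M* replicate 3, 8 of the 17 were higher at an unadjusted p under 0.05, beside 1466 of all 18373 gene models. In that fit 1 of the 17 passed the adjusted p. *Hsp70-2* had the smallest p of the list, with 59.3, 67.0 and 67.8 TPM in *gun1W*, against 13.6, 29.3 and 40.2 TPM in *gun1M* (log2 difference 1.32, SE 0.30, adjusted p = 0.127). Its groups did not overlap. *HSP70*, a cytosolic chaperone, had 120.3, 157 and 117 TPM in *gun1W* and 23.3, 67.0 and 144 TPM in *gun1M* (log2 difference 1.08, adjusted p = 0.46). *HSP21*, a small heat shock protein of the plastid, had 14.2, 28.3 and 18.1 TPM in *gun1W* and 34.0, 20.1 and 33.9 TPM in *gun1M* (−0.53, adjusted p = 0.46).

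Of 16 genes for excess light and reactive oxygen, 7 were higher and 2 lower at an unadjusted p under 0.05 (43.75% and 12.5%, against 5.58% and 5.17% of all gene models). Their median was 0.22. *FER1*, the iron store ferritin, had 89.6, 148 and 196 TPM in *gun1W*, against 50.1, 79.3 and 60.5 TPM in *gun1M* (log2 difference 1.13, adjusted p = 0.127). The marbled libraries were the lowest of the mutant, since *gun1G* averaged 168 TPM. *CSD2*, the plastid copper/zinc superoxide dismutase, differed by 0.39, and the thylakoid ascorbate peroxidase *TAPX* by −0.49. None of 9 genes of the mitochondrial retrograde response reached an unadjusted p under 0.05 (median 0.49).

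Hormone and cold genes were mixed. For jasmonate the median of 18 genes was −0.42 (0.33 with TPM as deposited) and 4 were lower at an unadjusted p under 0.05 (22.2%, against 5.17% of all gene models). *LOX2*, the lipoxygenase that starts jasmonate synthesis in plastids, had 1.101, 3.30 and 2.79 TPM in *gun1W*, against 4.09, 14.3 and 13.9 TPM in *gun1M* (log2 difference −1.69, adjusted p = 0.125). The next enzymes, *AOS* (−0.75) and *AOC1* (−0.78), had smaller differences, and none of the 18 passed the adjusted p. For 12 cold genes the median was −0.16, and *COR15A*, a protectant protein of the plastid stroma, had 1.96, 21.3 and 25.1 TPM in *gun1W* and 18.6, 88.4 and 80.4 TPM in *gun1M* (−2.12, adjusted p = 0.309). Replicate 1 was the low library in both groups. The sugar starvation list had a median of −0.09 over 16 genes, the flavonoid list 0.41 over 10 and the salicylic acid list −0.21 over 4. *SEN1*, a gene induced by darkness, had 22.1, 11.9 and 7.44 TPM in *gun1W*, against 94.0, 29.0 and 39.7 TPM in *gun1M* (−1.84, adjusted p = 0.2). *DFR*, of anthocyanin synthesis, differed by 0.83 at levels under 3 TPM.

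Markers of other tissues were measured in both colours. The summed level of the 6 tested root markers was 140 to 421 TPM in *gun1W* and 86.3 to 167 TPM in *gun1M*, beside 94.8 to 182 TPM in *gun1G* and 301 to 462 TPM in Col-0. Most of it was *PRP3*, which had 377, 219 and 105 TPM in *gun1W* and 116, 55.1 and 131 TPM in *gun1M* (log2 difference 1.12, adjusted p = 0.402). All 6 had a positive difference (median 0.31), and 1 was higher at an unadjusted p under 0.05 (16.7%, against 5.58% of all gene models). Their part in the results was not tested. The 2 tested shoot meristem markers summed to 3.60 to 4.22 TPM in *gun1W* and 2.15 to 4.45 TPM in *gun1M*. Of 5 guard cell markers, the channel gene *KAT1* was lower at an unadjusted p under 0.05 (−1.03, adjusted p = 0.135). The genes of green tissue were abundant in both groups, the LHC genes summing to 17478 to 20506 TPM in *gun1W* and 23593 to 34538 TPM in *gun1M*.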

How the data were processed

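The authors deposited TPM per transcript, estimated with Salmon on the AtRTD3 transcriptome, and repeated the plastid rows in a second table. Trimmomatic, FastQC, STAR, Salmon and TAIR10 are given without versions in the submitters' processing notes. Read counts were not used here. Since the TPM of each library adds up to 1000000, depth and the counting error of low values are unknown. All columns matched a library of the series. The authors' own comparisons were not used.

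TPM was summed per gene model, and names that join neighbours were kept apart. Each library was multiplied by a factor that brought the median nuclear gene (12490 genes at TPM 1 or more throughout) to the same level, 0.538 to 0.691 for *gun1W* and 0.908 to 1.16 for *gun1M*. Models that reached TPM 1 in 3 or more libraries were kept, namely 17675 nuclear, 83 mitochondrial, 402 joined and 213 unnamed ones. The log2 values, with 1 added, went into a single limma 3.58.1 model in R 4.3.3 over all 12 libraries (eBayes with trend), with no term but the group. Fold changes of low values are understated on this scale. Adjustment followed Benjamini and Hochberg, and the 97 plastid models were fitted alone. The threshold for a call was an adjusted p of 0.05 and, outside the plastid, a log2 difference of at least 1 in size. Shares were compared with two-sided exact permutation tests (scipy 1.17.1). Nothing states that replicates came from separate sowings, so p-values measure the spread between libraries.

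Named genes were all called models, up to 4 members of each of 23 lists with the smallest unadjusted p, and the largest and smallest change in each plastid complex. Models below 2-fold, *GUN1*, *AT3G06365* and other plastid genes were added with their values in view. The members, lists and rule were chosen with earlier results of these data known. Copies of organelle sequence were found with BLAST 2.17.0 in TAIR10.1 (at least 90% identity). Other added values, filters, scalings, designs and left-out libraries were tried.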

Additional observations from a re-analysis of the deposited data

How the results depend on the processing

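The plastid decreases held under the alternatives tried, with 48 (TPM as deposited) to 79 models lower and 0 higher in each, whereas the few calls outside the plastid depended on most choices. Of these, 4 higher and 7 lower models were called with 5 added before the log, 10 lower with no filter, 5 higher with a filter at a TPM of 5, 2381 higher with TPM as deposited (where the median log2 difference of all models was 0.64, so that this count carries the offset between the scales), 8 lower with nuclear sums equalled, 1 higher and 9 lower when the *AT3G06365* share was a covariate, and 0 higher and 0 lower with the 6 libraries alone, where 777 and 721 had an unadjusted p under 0.05. Leaving out 1 library gave 2 to 18 higher and 5 to 25 lower models. The cause was not tested, apart from the smaller number of libraries. The mitochondrial share without *ATMG00280*, added after the data were seen, was reversed (5.62 percentage points). Without any 1 library, the share differences were −23.4 to −19.9 for the plastid and −11.9 to −7.54 for the mitochondrion.

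Nothing states that the same replicate numbers in *gun1W* and *gun1M* mark pairs, and 3 libraries per group cannot settle it. Deviations from the group means correlated at 0.42, 0.07 and −0.34 for numbers 1, 2 and 3, and not every library correlated best with its own number. With the replicate number as a block, 3 models were called higher and 9 lower, 68 plastid models were lower, and the exact test of paired shares gave p = 0.25, its smallest.

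With TPM as deposited and the same offset, 23 named genes with a negative difference were above 0, namely *AT5G14970* 0.00567, *PSAE1* 0.00985, *AOS* 0.018, *BCH2* 0.0245, *ycf15.1* 0.0333, *LHCA3* 0.0574, *CAO* 0.074, *PRK* 0.12, *rpoB* 0.12, *SBPASE* 0.15, *VSP2* 0.15, *RBCS3B* 0.19, *HSP21* 0.22, *rps2* 0.25, *TAPX* 0.27, *RPL27* 0.28, *CRD1* 0.28, *OHP2* 0.32, *RPL12-A* 0.32, *DEG1* 0.36, *FTSH1* 0.36, *PIF3* 0.37 and *psbN* 0.71. With the covariate, *petG* was at 0.44. Leaving out 1 library turned 4 plastid models, with ranges of −0.86 to 0.96 for *rpl36*, −0.13 to 3.32 for *trnK* (1.02 with all libraries), −0.55 to 0.33 for *psbN* and −0.24 to 0.15 for trnI.2-trnA.1-rrn23S.1-rrn4.5S.1-rrn5S.1. Over all named genes and alternatives, 1102 values kept direction and side of the threshold, 247 lost the call, 33 gained one and 35 changed sign. Depth is unknown, so what low values of these libraries can show was not estimated.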

Other observations

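Some groups of genes were looked at after their values were seen, and are given as a description. Proteasome subunits, the parts of the protease that degrades tagged proteins in the cytosol and nucleus, leaned towards higher values in white cotyledons. Of 27 models with such a product name, 14 were higher and 0 lower at an unadjusted p under 0.05 (5.58% and 5.17% over all gene models). In 17 of them all *gun1W* libraries lay above all *gun1M* libraries (63.0%, against 7.16% over all gene models), and 1, *PAE1*, passed the adjusted p. Their median log2 difference was 0.40, and their summed level was 574 to 628 TPM in *gun1W*, against 392 to 451 TPM in *gun1M*. *PAE1* had 13.8, 11.2 and 11.7 TPM in *gun1W*, against 6.39, 5.33 and 6.16 TPM in *gun1M*, and *PBD2* had 41.4, 34.3 and 49.0 TPM in *gun1W*, against 28.4, 18.6 and 16.1 TPM in *gun1M*. In *gun1M* relative to *gun1G* the median of the same models was −0.11, so marbled cotyledons were near green ones. The ATPase gene *AT5G20000*, called higher in *gun1W*, is not counted among the 27, because its product name does not hold the word proteasome. Whether it encodes a proteasome subunit was not examined.

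Mitochondrial transcripts other than *ATMG00280* leaned the same way. Of 82 models, 68 had a positive difference, 23 were higher and 2 lower at an unadjusted p under 0.05, and none passed the adjusted p (median 0.35). *ATMG00560* came closest, with 404, 353 and 338 TPM in *gun1W*, against 209, 244 and 218 TPM in *gun1M* and a mean of 121 TPM in *gun1G* (log2 difference 0.70, adjusted p = 0.0549 in limma). In *gun1M* relative to *gun1G* the median was 0.78. The mitochondrial genome matched at least 50% of the span of 136 nuclear models. At an unadjusted p under 0.05, 57 of these 136 were higher and 2 lower (41.9% and 1.47%, against 5.58% and 5.17% of all gene models). Their median was 0.42, and their reads cannot be told apart from mitochondrial ones here.

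The other ferritin genes went with *FER1*. *FER3* had 37.5, 51.5 and 67.3 TPM in *gun1W*, against 27.3, 29.7 and 18.4 TPM in *gun1M* (log2 difference 1.01, adjusted p = 0.2 in limma), and *FER4* had 33.6, 46.3 and 54.4 TPM in *gun1W*, against 25.1, 25.8 and 27.2 TPM in *gun1M* (0.73, adjusted p = 0.126 in limma). In all 3 genes every *gun1W* library was above every *gun1M* library, as in 7.16% of all gene models, without a passed test.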
